A study of Mus musculus with 6 samples.

Results

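The 10 genes described here encode heat shock proteins or their direct partners, and they were taken by symbol from the 23474 genes of the liver expression table. Of these, 8 act in the cytosol (Hspa1a, Hspa1b, Hspa8, Hsph1, Bag3, Hsp90aa1, Hsp90ab1 and Hspb1) and 2 form the chaperonin of the mitochondrial matrix (Hspd1 and Hspe1). The choice used no measured value, although it was made with earlier results of these data known. All mice were male C57BL/6J. The control group received a high-fat diet (HFD) for 12 weeks, and the other group (BT) received this diet with 1.5% (w/w) Bangpungtongseong-san extract, a herbal medicine, over the same weeks. The mice were 17 weeks old at sampling, and 3 liver libraries per group were analysed. The labels leave unsaid whether each library came from 1 animal or from several of the 10 per group, so the p-values measure only how these libraries spread, which may be technical. All HFD library codes carry one letter and all BT codes another, and whatever that letter stands for cannot be told apart from the diet.

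Heat shock proteins are chaperones, which bind unfolded protein chains and help them to fold or to be degraded. In the cytosol HSP70 proteins work with DNAJ co-chaperones, which stimulate their ATPase, and with exchange factors, which release the bound nucleotide, and they pass clients such as kinases and steroid receptors to HSP90. Small heat shock proteins hold unfolded chains without ATP, and in mitochondria the HSP60 barrel folds imported proteins under a lid of HSP10. Heat shock factor 1 (HSF1) induces some of these genes under heat or other protein damage by binding inverted GAA repeats, the heat shock elements, while other members are made at high levels in unstressed cells.

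Values were in FPKM (fragments scaled to transcript length and library size) and were tested as log2(FPKM + 1) by limma over the 10476 genes that averaged 1 FPKM or more. Changes are BT minus HFD on that scale, where folds of weakly expressed genes come out too small, and a gene passed at a Benjamini-Hochberg adjusted p under 0.05 over all genes tested. Of all genes, 630 were higher and 768 lower in BT (458 and 862 with median-of-ratios scaling, 624 and 557 when libraries were brought to one sum). FPKM sums per library ran from 783151 to 930139. The deposited values came without counts, so the depth behind each value is unknown and no counting interval is given. Hepatocyte genes were high, as the liver label says: Apoa2 lay at 20220 to 46210 FPKM and Ttr at 3003 to 5937 FPKM in the 6 libraries. Of 7 hepatocyte markers tested, these 2 fell and none rose, while Cps1 differed by 0.58 (adjusted p = 0.062) and Fgb by -0.12 (adjusted p = 0.478). The principal transcript has 518 bases in Apoa2, 1186 in Ttr, 5555 in Cps1 and 3810 in Fgb. Alb is listed at 0 in HFD replicate 3, so a 0 in this table can be a failed estimate.

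Of the 10 genes, 4 fell with BT and none rose: Hspb1, Hspa1b, Hspe1 and Bag3. The 2 deepest falls among the members tested were those of Hspb1, a small heat shock protein, and Hspa1b, a stress-inducible HSP70. Their BT means were 0.419 and 0.339 of their HFD means. The abundant constitutive chaperones Hspa8 and Hsp90ab1, together with Hsp90aa1 and Hsph1, did not pass, and neither did Hspd1. Thus 4 of the 9 genes tested were lower, against 7.33% of all genes tested, and 0 were higher, against 6.01%. At an unadjusted p under 0.05 in the same limma fit, 4 were lower and 1 was higher, against 14.4% and 18.1% of all genes tested (32.4% in either direction). The 3 BT values lay below the 3 HFD values without overlap in 4 of the 9 genes tested, against 16.1% of all genes tested for this direction and 39.3% for either direction. Hspa1a, which also did not overlap, lay below 1 FPKM on average and was not tested. The 9 tested genes had group means of at least 2.49 FPKM, so none depended on 1 group to pass the filter.

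The members spanned more than 3 orders of magnitude in FPKM. Hspa8 was the highest, at rank 94 of the 10476 genes tested, followed by Hsp90ab1 at rank 232, Hspd1 at rank 483 and Hspe1 at rank 559. Hsp90aa1 stood at rank 1343, Hspb1 at 2899, Hsph1 at 4642, Bag3 at 5550 and Hspa1b at 6841. In HFD livers the mean levels were 184 ± 27.6 FPKM (SD, n = 3) for Hspe1 and 149 ± 32.2 FPKM for Hspd1. Hspe1 was the higher of this pair in each HFD library. Means were 10.1 ± 2.99 FPKM for Hsph1, 9.21 ± 1.38 FPKM for Bag3 and 7.34 ± 2.39 FPKM for Hspa1b. Hspa1b was the lowest of these 3 genes in each HFD library. Differences between genes were not tested.

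**Figure D1:**
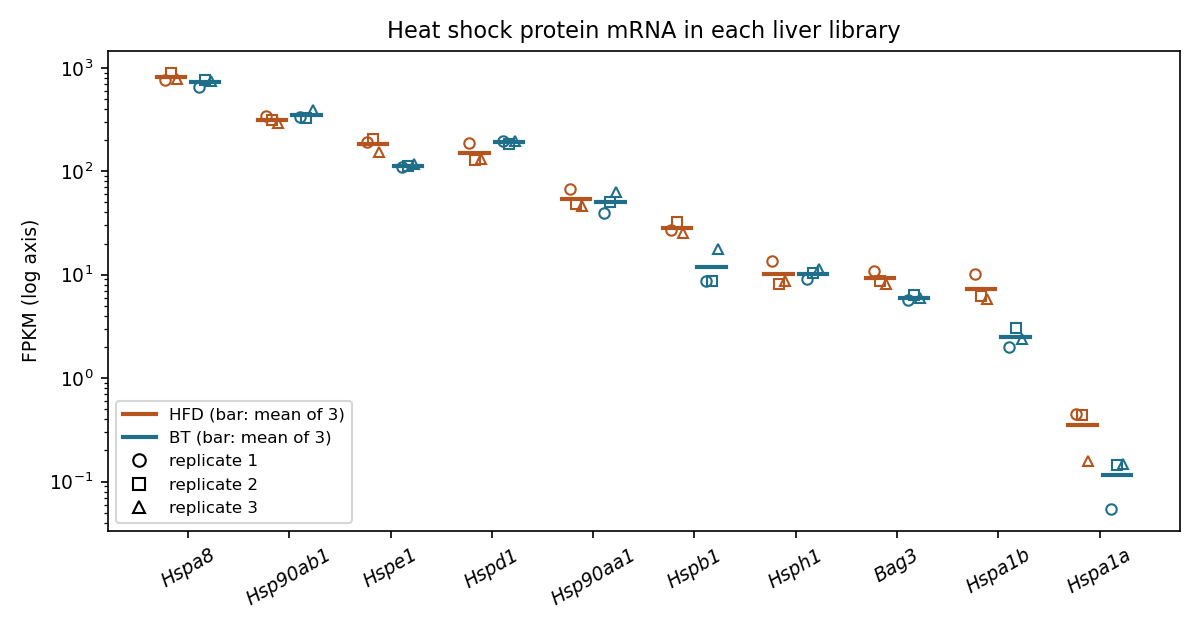
FPKM (log axis) of the 10 heat shock genes in each of 3 HFD and 3 BT liver libraries, with symbols for replicates and horizontal bars for group means, ordered by the HFD mean. The BT symbols lie below all HFD symbols for Hspe1, Hspb1, Bag3, Hspa1b and Hspa1a, and the groups overlap in the other 5 genes.

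Hspa1a and Hspa1b encode the inducible cytosolic HSP70, the chaperone that is nearly silent in unstressed cells and rises steeply under heat. They lie on the minus strand of chromosome 17, at 34969190 to 34972156 and 34956436 to 34959238 (GENCODE M21, GRCm38, which may not be the authors' build), 9951 bases apart. The 250 bases before their start sites are shown because this pair is nearly a duplicate in its regulatory sequence and in its transcript, which bears on how their values are read. Both are printed in the direction of transcription from RefSeq (GRCm38.p6), at chr17:34959239-34959488 for Hspa1b and chr17:34972157-34972406 for Hspa1a. Matches to GAANNTTC or TTCNNGAA, the inner part of a heat shock element, are in capitals:
Hspa1b: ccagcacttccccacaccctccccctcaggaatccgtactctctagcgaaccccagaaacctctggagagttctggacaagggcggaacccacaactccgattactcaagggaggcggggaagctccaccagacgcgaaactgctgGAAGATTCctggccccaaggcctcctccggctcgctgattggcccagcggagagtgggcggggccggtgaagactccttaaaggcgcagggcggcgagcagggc
Hspa1a: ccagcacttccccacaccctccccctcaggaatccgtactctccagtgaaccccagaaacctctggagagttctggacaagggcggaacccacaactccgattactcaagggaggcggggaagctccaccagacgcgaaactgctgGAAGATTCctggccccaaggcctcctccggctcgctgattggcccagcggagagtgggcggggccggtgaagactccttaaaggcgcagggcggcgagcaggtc
The 2 stretches differed at 3 of 250 positions, and each held 1 match, at the same place, positions -104 to -97 from the start. Of the 50-base stretches of the Hspa1b transcript, 62.3% also occur in the Hspa1a transcript. The split of fragments between the pair is therefore uncertain, and the read length is not given in the sources used here.

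Hspa1b stood at 10.1, 6.16 and 5.78 FPKM on HFD and at 2.02, 3.07 and 2.38 FPKM on BT. All 3 BT libraries were lower than the lowest HFD library, and HFD replicate 1 was the highest of all. Hspa1b means were 7.34 ± 2.39 FPKM (SD, n = 3) in HFD and 2.49 ± 0.535 FPKM in BT, and the gene changed by -1.23 ± 0.20 in log2 (SE; adjusted p = 0.0125 by limma). Hspa1a was measured at 0.446, 0.444 and 0.160 FPKM in HFD and at 0.0543, 0.146 and 0.149 FPKM in BT. These values are near the low end of the table, and the group means differed in about the same proportion, 0.333. With the 2 rows summed, an alternative chosen after seeing the data, the pair fell from 7.69 ± 2.49 to 2.60 ± 0.576 FPKM, a change of -1.25 ± 0.21 (adjusted p = 0.0125). The change of Hspa1b passed in 5 of the 6 fits that left out 1 library, and without BT replicate 1 it was -1.13 with an adjusted p of 0.0569.

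Hspa8 encodes HSC70, the constitutive HSP70 that folds new chains and uncoats clathrin vesicles. Its values were 756, 900 and 775 FPKM in HFD and 649, 763 and 753 FPKM in BT, so the groups overlapped. The change was -0.17 ± 0.12 (adjusted p = 0.369), with a 95% interval of -0.44 to 0.11. Hspa1b thus stood at 0.00922 ± 0.00359 of the Hspa8 level in HFD and at 0.00343 ± 0.000514 in BT. Transcripts of 13 other genes, most of them processed pseudogenes, hold 74.8% of the 50-base stretches of Hspa8, so this value is uncertain as well.

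Hsph1 encodes HSP110, an exchange factor of HSP70 that also helps to dissolve aggregates. It was measured at 13.6, 8.12 and 8.71 FPKM in HFD and at 9.10, 10.4 and 11.3 FPKM in BT, with the BT values between the HFD extremes. Its change of 0.04 ± 0.18 (adjusted p = 0.885, 95% interval -0.37 to 0.46) had either sign depending on the scaling, at -0.02 under median-of-ratios scaling and 0.13 when libraries were brought to one sum. None of its 50-base stretches occurs in another gene's transcript.

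Bag3 encodes another exchange factor, one that binds HSP70 and small heat shock proteins and directs clients to autophagy (plus strand of chromosome 7, 128523616 to 128546981). It was measured at 10.8, 8.72 and 8.14 FPKM in HFD and at 5.73, 6.31 and 6.01 FPKM in BT. Every BT library was below every HFD library, and the BT values were close together. Bag3 means were 9.21 ± 1.38 FPKM (SD, n = 3) in HFD and 6.01 ± 0.287 FPKM in BT, and the gene changed by -0.53 ± 0.13 in log2 (SE; adjusted p = 0.0313 by limma). Its transcript shares no 50-base stretch with other genes. The call was close to the threshold: it passed in 1 of the 6 fits that left out 1 library, without HFD replicate 3, and reached an adjusted p of 0.121 without BT replicate 1. It was also lost when libraries were brought to one sum (-0.45, adjusted p = 0.075) and with no filter on low values (adjusted p = 0.0676).

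Hsp90aa1 and Hsp90ab1 encode the stress-inducible and the constitutive HSP90 of the cytosol, which mature kinases and steroid receptors. Hsp90aa1 was measured at 67.1, 48.0 and 46.5 FPKM in HFD and at 39.9, 49.9 and 63.2 FPKM in BT. The groups overlapped widely, and the change was -0.08 ± 0.19 (adjusted p = 0.789, 95% interval -0.52 to 0.36), or 0.01 when libraries were brought to one sum. Hsp90ab1 was measured at 346, 312 and 291 FPKM in HFD and at 335, 329 and 390 FPKM in BT. Its change was 0.15 ± 0.12 (adjusted p = 0.395, 95% interval -0.11 to 0.42). The inducible form was thus not higher than 0.194 of the constitutive form in any library. Pseudogenes hold 58.5% of the 50-base stretches of Hsp90aa1 and 4.49% of those of Hsp90ab1.

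Hspb1 encodes HSP25 (HSP27 in humans), a small heat shock protein that holds unfolded proteins and binds actin (plus strand of chromosome 5, 135887919 to 135889563). Windows around its 2 matches to the inner part of a heat shock element are printed, as it and Hspa1b fell deepest among tested members. The windows are chr5:135887791-135887820 and chr5:135887811-135887840 on the plus strand (RefSeq, GRCm38.p6), with the matches to GAANNTTC in capitals:
Hspb1 distal match: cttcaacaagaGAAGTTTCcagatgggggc
Hspb1 proximal match: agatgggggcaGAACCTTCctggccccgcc
The matches lie at positions -117 to -110 and -97 to -90 from the start site. GAANNTTC was found in 7.86% of 32851 RefSeq promoter windows, and a link of these matches to the fall was not tested. Hspb1 was measured at 27.4, 32.0 and 25.1 FPKM in HFD and at 8.79, 8.76 and 17.9 FPKM in BT. All BT libraries were lower than all HFD libraries, but BT replicate 3 stood close to the mean of all 6. Hspb1 means were 28.2 ± 3.50 FPKM (SD, n = 3) in HFD and 11.8 ± 5.25 FPKM in BT, and the gene changed by -1.25 ± 0.24 in log2 (SE; adjusted p = 0.0182 by limma). The change was -1.57 (adjusted p = 0.00373) without BT replicate 3. The call was lost without HFD replicate 2, BT replicate 1 or BT replicate 2, with a highest adjusted p of 0.073, and with no filter on low values (adjusted p = 0.0605). A pseudogene and a second gene model share 60.4% of its 50-base stretches.

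Of 4 smooth muscle markers 1 was tested, Tagln, which fell by 0.70 (adjusted p = 0.0137). Acta2, Myh11 and Cnn1 lay too low to be tested, and Myh11 and Cnn1 overlapped between the groups. The 4 markers, mostly Tagln, summed to 4.41 to 5.94 FPKM in HFD and to 2.55 to 3.08 FPKM in BT. Smooth muscle also expresses Hspb1, and the part of these cells in its fall was not tested. Of 7 tested markers of stellate cells and fibroblasts 1 fell, Col3a1. The 8 in the table, mostly Dcn, summed to 99.9 to 165 FPKM in HFD and 72.0 to 97.5 FPKM in BT, with Lrat listed at 0 throughout. Dcn, at 74.2 to 109 FPKM in HFD and 56.5 to 71.2 FPKM in BT, did not pass (adjusted p = 0.116 by limma). The 5 skeletal muscle markers summed to 0, 59.1 and 10.7 FPKM in HFD and to 19.2, 23.2 and 16.7 FPKM in BT, so the groups overlapped. In bulk liver, fewer cells of a type and less RNA per cell cannot be told apart.

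Hspd1 and Hspe1 encode HSP60 and HSP10, the barrel and the lid of the mitochondrial chaperonin. They lie head to head on chromosome 1, Hspd1 on the minus strand at 55077835 to 55088243 and Hspe1 on the plus strand at 55088132 to 55091307, with 107 bases between the starts of their principal transcripts. A window between these starts is printed because it lies upstream of both principal transcripts and holds 4 alternating heat shock element units, at chr1:55088053-55088082 (RefSeq, GRCm38.p6), with the matched letters in capitals:
Hspe1 strand: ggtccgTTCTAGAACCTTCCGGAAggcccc
Hspd1 strand: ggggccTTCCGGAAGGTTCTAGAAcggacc
It holds 2 overlapping matches to the 3-unit motif (GAANNTTC followed by NNGAA, or TTCNNGAA followed by NNTTC), which 0.603% of 32851 RefSeq promoter windows hold (250 bases before to 50 after a start, both strands searched). RefSeq gave promoter windows for 7 of the 10 genes, and none for Hspa8, Hsp90aa1 and Hsp90ab1. Each of the 7 genes with windows had at least 1 window with a match to GAANNTTC or TTCNNGAA. This counts genes, whereas over all windows 15.1% held a match. Hspd1 and Hspe1 share their matched bases, and the windows of Hspa1a and Hspa1b are near copies, so the 7 are not independent. The 3-unit motif was found for Hsph1, Hspd1 and Hspe1. In Bag3 the match lay 43 to 50 bases after the start. The 3-unit motif of Hsph1 also lay after the start, at 37 to 49 and 16 to 28 bases in its 2 windows. Of the 2 Hspd1 windows, 1 held a match. These matches are a description of the letters and not of binding.

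Of the 2 chaperonin genes, Hspe1 fell and Hspd1 did not pass. Hspe1 was measured at 191, 207 and 154 FPKM in HFD and at 109, 112 and 118 FPKM in BT. The groups did not overlap, and the BT libraries lay within a narrow range. Hspe1 means were 184 ± 27.6 FPKM (SD, n = 3) in HFD and 113 ± 4.13 FPKM in BT, and the gene changed by -0.69 ± 0.13 in log2 (SE; adjusted p = 0.0152 by limma). Hspd1 was measured at 186, 129 and 132 FPKM in HFD and at 196, 184 and 195 FPKM in BT. Here HFD replicate 1 lay within the BT range and the other HFD libraries below it, and the change was 0.38 ± 0.15 (adjusted p = 0.114, 95% interval 0.05 to 0.72 before adjustment). Without HFD replicate 1 it was 0.55 and passed (adjusted p = 0.0155).

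The HSP10 to HSP60 mRNA ratio, Hspe1 FPKM divided by Hspd1 FPKM, was 1.03, 1.61 and 1.16 in HFD and 0.557, 0.607 and 0.604 in BT. Hspe1 exceeded Hspd1 in every HFD library and lay below it in every BT library. The 2 transcripts differ in length (774 and 2423 bases), and with the length and GC dependence taken out the changes were -0.33 for Hspe1 and 0.27 for Hspd1, closer together than -0.69 and 0.38. The fall of Hspe1 was lost without BT replicate 1 (adjusted p = 0.0722) and without BT replicate 2 (adjusted p = 0.059). Of the 50-base stretches, 44.8% in each gene are shared with other transcripts, and exons of Hspd1 cover 7.6% of the exon bases of Hspe1.

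**Figure D2:**
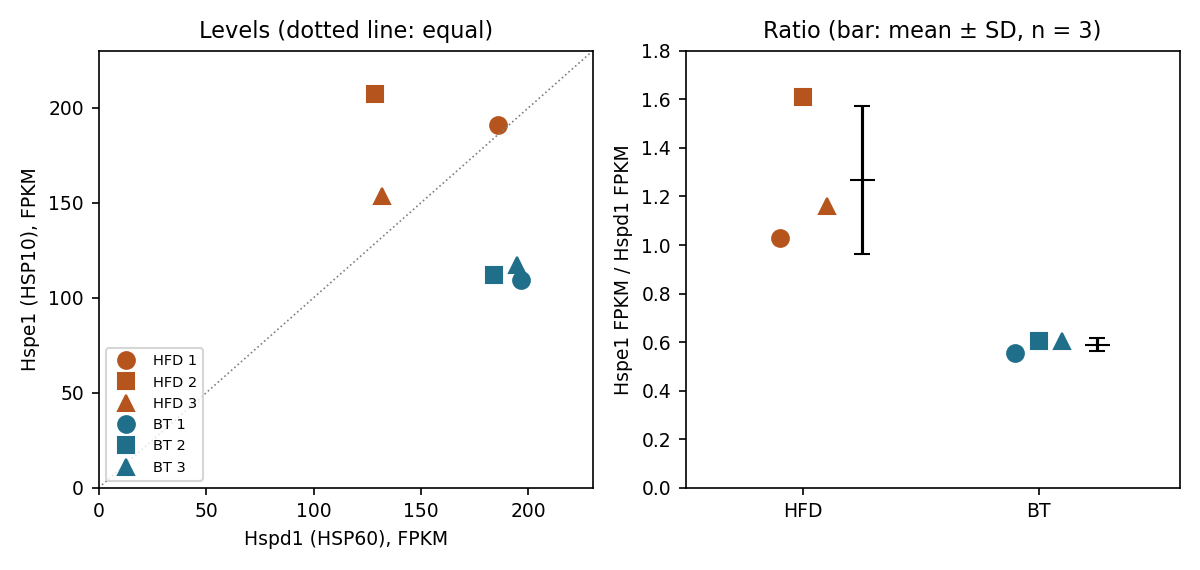
Left, Hspe1 against Hspd1 in FPKM, 1 symbol per library, with a dotted line of equal levels; right, the ratio Hspe1 to Hspd1 per library with the mean ± SD (n = 3). HFD libraries lie above the line, at ratios of 1.03 to 1.61, and BT libraries below it, at 0.557 to 0.607.

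Transcript length moved with diet across the whole table, and 2 of the 4 genes that fell are short. Among 737 tested genes with a principal transcript of up to 1000 bases, 41.2% were lower in BT and the median change was -0.46. Among 4240 genes of 2001 to 4000 bases, 3.28% were lower and the median change was 0.08. Hspe1 (774 bases) and Hspb1 (903 bases) belong to the first class, and Hspa1b (2803 bases) and Bag3 (2562 bases) to the second. After the dependence on transcript length and GC content had been taken out of each library, Hspe1 changed by -0.33 (adjusted p = 0.0905) and Hspb1 by -0.82 (adjusted p = 0.0866), so both calls were lost. Hspa1b changed by -1.27 (adjusted p = 0.0226) and Bag3 by -0.60 (adjusted p = 0.0376) in that fit.

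**Figure D3:**
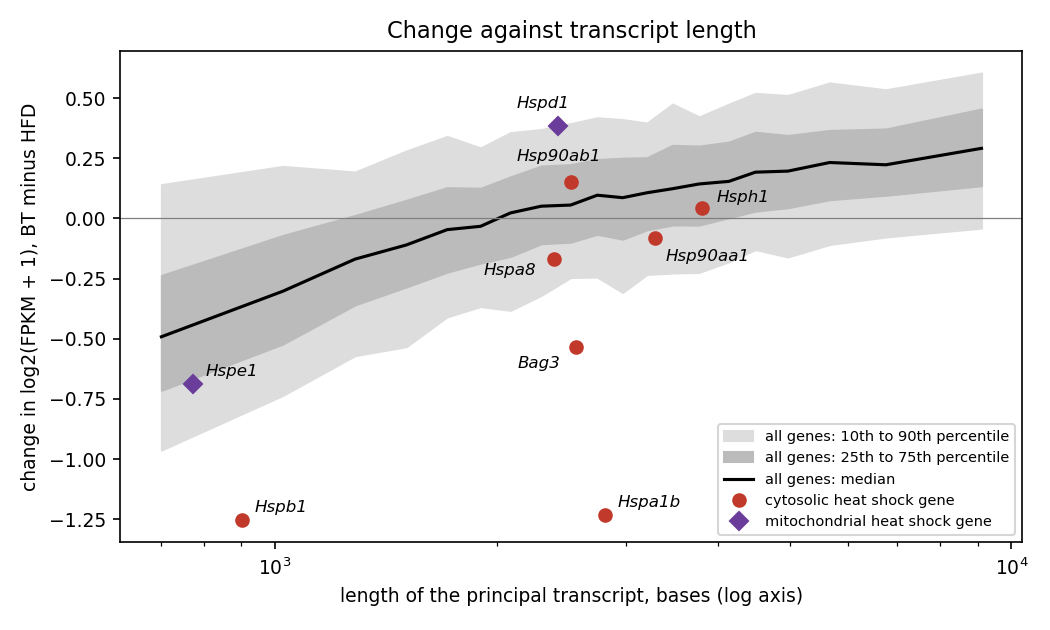
Change in log2(FPKM + 1), BT minus HFD, against principal transcript length (log axis); bands and line give percentiles and median of all genes tested in 20 length bins, and points the 9 tested heat shock genes. Hspe1 lies within the band of equally short genes, while Hspb1, Hspa1b and Bag3 lie below the 10th percentile at their lengths.

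The compartments overlapped in their changes. The 8 cytosolic genes had a median change of -0.22, and the 7 of them that were tested, without Hspa1a, had a median of -0.17. Of these 7, 3 were lower and none higher. The 2 mitochondrial genes had a median of -0.15, with 1 lower and none higher. The mitochondrial median was -0.03 with the length and GC dependence taken out, and the cytosolic median was -0.38 with a pseudocount of 0.1. The median over all genes tested was 0.07. No test was made of this difference, and the range was -1.25 to 0.15 in the cytosol and -0.69 to 0.38 in mitochondria. At an unadjusted p under 0.05, 3 of the 7 cytosolic genes tested were lower and none higher. Of the 2 mitochondrial genes, 1 was lower and 1, Hspd1, was higher at this threshold. Over all genes tested these shares were 14.4% lower and 18.1% higher.

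**Figure D4:**
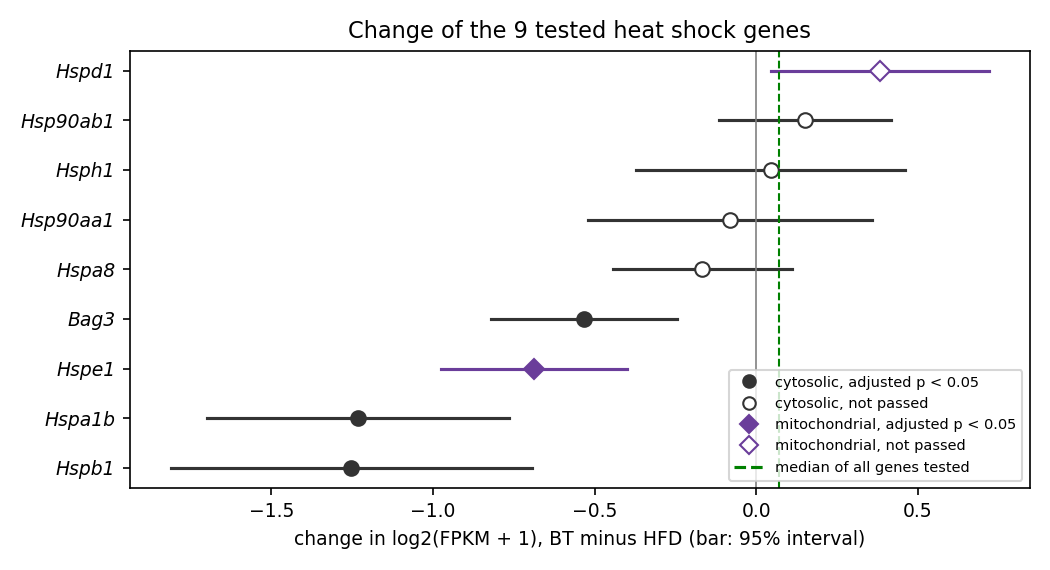
Change in log2(FPKM + 1), BT minus HFD, of the 9 tested genes with the 95% interval from limma (before adjustment for multiple tests); circles are cytosolic, diamonds mitochondrial, filled symbols passed, and the dashed line is the median of all genes tested (0.07). Filled symbols (Hspb1, Hspa1b, Hspe1, Bag3) lie between -1.25 and -0.53, and the 5 open symbols between -0.17 and 0.38.

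Single libraries differed in a way that several members shared. HFD replicate 1 was the highest library for 5 of the 10 genes (Hspa1b, Hspa1a, Bag3, Hsp90aa1 and Hsph1), and BT replicate 1 was the lowest for 6. That library was also the highest for 4 of 5 adipocyte markers, with Adipoq, Plin1 and Lep at 1.40, 0.40 and 0.72 FPKM against at most 0.20 FPKM elsewhere. The fifth and most abundant, Cfd, was at 193 FPKM there and at 218 FPKM in BT replicate 1, and the list's sum was likewise higher in BT replicate 1 (218 FPKM) than in HFD replicate 1 (196 FPKM). Of 22 immediate early genes 10 were highest in HFD replicate 1, among them Fos (7.41 FPKM against 0.91 to 1.72 FPKM elsewhere), and 5 in HFD replicate 3. Myc was lowest in HFD replicate 1, at 1.24 FPKM. Their part in the heat shock values was not tested. The fold of Hspa1b was smaller but still passed without it (-1.01, adjusted p = 0.0139), and Bag3 missed the threshold (-0.43, adjusted p = 0.0546).

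**Figure D5:**
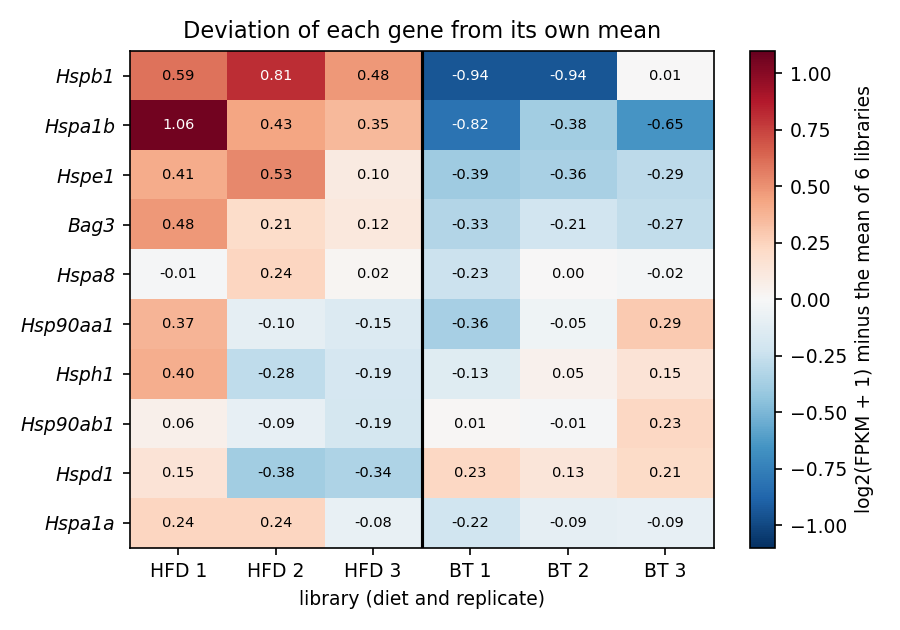
Deviation of log2(FPKM + 1) from the gene's own mean over the 6 libraries (colour and printed value), for the 10 heat shock genes in rows and the libraries in columns, with a line between the diets. HFD replicate 1 is the highest library for Hspa1b (1.06), Bag3 (0.48), Hsph1 (0.40) and Hsp90aa1 (0.37), and BT replicate 3 stands at 0.01 for Hspb1 against -0.94 in the other BT libraries.

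Beside the members, no cytosolic DNAJ, HSP70, HSP110, exchange factor, HSP90 co-chaperone or small heat shock protein gene that was tested passed. The mitochondrial DNAJ gene Dnajc19, which passed, is given below. Of 14 tested DNAJ co-chaperones of the cytosol, which bring clients to HSP70, none passed by limma. At an unadjusted p under 0.05, 1 was lower and 2 were higher. Dnajb1, a heat-inducible partner of HSP70, was at 9.72, 11.1 and 10.2 FPKM in HFD and at 7.69, 8.27 and 7.86 FPKM in BT. These groups did not overlap, and the change was -0.34 ± 0.10 (adjusted p = 0.062). Of the 14 genes, 1 was lower without overlap and 4 were higher, Dnajc5 among them. Over all genes tested these shares were 16.1% and 23.2%. Dnajc5, the cysteine string protein of secretory vesicles, differed by 0.40 (adjusted p = 0.0944) and Dnaja1, the most abundant DNAJ gene of the list, by 0.16 (adjusted p = 0.492).

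None of 3 further HSP70 and HSP110 genes passed, and none had an unadjusted p under 0.05: Hspa4l differed by 0.19, Hspa13 by 0.10 and Hspa4 by -0.05. Among 7 exchange and HSP70-binding factors none passed and none had an unadjusted p under 0.05. Bag6, which handles stray membrane proteins, differed by 0.32 (adjusted p = 0.156) and Bag4 by 0.23 (adjusted p = 0.315). Among 16 HSP90 co-chaperones none passed, with 1 lower and 1 higher at an unadjusted p under 0.05. Ptges3, the p23 protein that stabilises closed HSP90, differed by -0.34 (adjusted p = 0.127) and Cdc37l1, a relative of the kinase co-chaperone, by 0.38 (adjusted p = 0.0823). The other 3 small heat shock proteins tested did not pass either, also not unadjusted. Cryab differed by -0.31 (adjusted p = 0.221) and Hspb8, which forms a complex with Bag3, by -0.11 (adjusted p = 0.44).

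The transcripts of the heat shock factors themselves did not pass. Hsf1 was at 6.71, 8.41 and 7.07 FPKM in HFD and at 6.80, 8.54 and 7.75 FPKM in BT, with overlap (0.05 ± 0.13, adjusted p = 0.802, 95% interval -0.24 to 0.34). Hsf2 differed by 0.08 (adjusted p = 0.698) and Hsbp1, an inhibitor that binds HSF1, by -0.28 (adjusted p = 0.125). None of these 4 tested genes passed, and 1 was lower at an unadjusted p under 0.05. Of 7 further genes known to respond to heat shock 1 fell and none rose, while 2 were lower at an unadjusted p under 0.05. It was Serpinh1, the collagen chaperone HSP47, from 5.32, 9.47 and 9.23 FPKM to 3.26, 4.31 and 4.68 FPKM (-0.80 ± 0.21, adjusted p = 0.0413). Mt1, a metallothionein, differed by -1.17 (adjusted p = 0.125), with 147 to 620 FPKM in HFD and 97.6 to 203 FPKM in BT.

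Chaperones outside the HSP70, HSP90 and small heat shock protein systems of the cytosol served for comparison. Among 14 genes of the TRiC chaperonin, which folds actin and tubulin, and its partner prefoldin, 1 fell and none rose (3 lower and 2 higher at an unadjusted p under 0.05). It was the prefoldin subunit Pfdn5, from 74.2 ± 13.5 to 47.4 ± 2.16 FPKM (-0.62, adjusted p = 0.0251), and Pfdn1 differed by -0.44 (adjusted p = 0.102). Pfdn5 and Pfdn1 have short principal transcripts, of 1062 and 1109 bases. Of 16 other mitochondrial chaperones and proteases 2 fell and none rose (3 and 3 at an unadjusted p under 0.05). Clpx, the unfoldase of the matrix protease ClpXP, went from 77.6, 42.2 and 57.6 FPKM to 30.9, 26.2 and 37.4 FPKM (-0.86 ± 0.22, adjusted p = 0.0375). Dnajc19, a subunit linked to the import motor with a transcript of 659 bases, changed by -0.67 ± 0.13 (adjusted p = 0.0188). The Clpx transcript has 2885 bases. Hspa9, the HSP70 of mitochondria, stood at 166, 112 and 131 FPKM in HFD and at 184, 188 and 189 FPKM in BT. Like Hspd1, it had the BT libraries close together, and they lay above all its HFD libraries. Its difference of 0.47 ± 0.14 did not pass (adjusted p = 0.0607). Of the 16 genes, 6 were lower without overlap and 5 were higher.

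Of 15 chaperones of the endoplasmic reticulum none passed, with 4 higher and 0 lower at an unadjusted p under 0.05. Hsp90b1, the HSP90 of this compartment, differed by 0.67 (adjusted p = 0.0506) and P4hb, a protein disulfide isomerase, by 0.31 (adjusted p = 0.059). A pair of other stress lists was counted. Of 10 tested genes of the integrated stress response, which curbs translation, 7 fell and none rose. At an unadjusted p under 0.05, 8 were lower and 0 higher. The 7 that fell were Fgf21 (-1.87), Gdf15 (-1.99), Ddit3 (-0.76), Trib3 (-0.69), Nupr1 (-1.09), Ppp1r15a (-0.69) and Ddit4 (-0.81). Fgf21, Ddit3 and Nupr1 have short principal transcripts, of 951, 890 and 829 bases. Those of Gdf15, Trib3, Ppp1r15a and Ddit4 are longer, at 1545, 2026, 2809 and 1755 bases. Of 18 tested immediate early genes, which respond rapidly to stimuli, Jund (-1.56), Jun (-1.22) and Klf2 (-0.62) fell and none rose. Differences were negative in 15 of the 18 and positive in 3, among them Socs3 (0.34, adjusted p = 0.139) and Myc (1.16, adjusted p = 0.198). At an unadjusted p under 0.05, 7 were lower and 1 was higher. The part of both stress lists in the falls of heat shock genes was not tested.

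The genes most like 4 of the members were sought by the root mean square difference of log2(FPKM + 1) over the 6 libraries, each gene centred on its mean. For Hspa1b these were B430218F22Rik (0.12) and Mrps24, a mitochondrial ribosomal protein gene (0.18), and for Hspb1 they were 1810022K09Rik (0.15) and Rpl39, a ribosomal protein gene (0.18). B430218F22Rik, Mrps24, 1810022K09Rik and Rpl39 have principal transcripts of 1495, 995, 435 and 612 bases. B3gat3 (0.03) and Ubxn1 (0.05) were nearest to Hspe1, and Ppp4r1 (0.09) and Polr3gl (0.09) to Hsp90aa1. Principal transcripts of B3gat3, Ubxn1, Ppp4r1 and Polr3gl have 1603, 1291, 3850 and 1427 bases. With 6 libraries and 10476 genes, near matches of this kind are a description only.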

How the data were processed

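The authors deposited gene expression as FPKM for 23474 Ensembl identifiers. Per the submitters' processing notes, Cufflinks 2.1.1, STAR 2.4.0 and CASAVA 1.8.2 were used, without their roles. Neither build, annotation nor strandedness is stated in those notes or the labels. Groups came from the sample titles. GENCODE M21 (GRCm38) named 22671 identifiers and gave positions and the length and GC content of each gene's principal, else longest, transcript.

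Genes averaging 1 FPKM or more were fitted as log2(FPKM + 1) with limma 3.58.1 in R 4.3.3 (variance trend, two-sided, 4 residual degrees of freedom), with Benjamini-Hochberg adjustment over 10476 genes. The script was tested on simulated data. With 3 libraries against 3, the smallest exact permutation p is 0.1, and no such test was run. Members, gene lists and tests were chosen with earlier results of these data known. The text names the 10 members, the 2 genes of each other list with the smallest p and all that passed, 5 chosen partners and the nearest patterns. The marker genes named, Fos, Myc and Socs3 were picked from their lists after their values were seen. Alternatives were pseudocount, filter, scaling, length and GC trend (natural splines, 5 degrees of freedom), variance trend, replicate block and left-out libraries. Sharing of 50-base stretches was counted over all GENCODE transcripts, both strands. Figures used matplotlib 3.10.9 in Python 3.11.15.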

Additional observations from a re-analysis of the deposited data

How the results depend on the processing

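Hspa1b, Hspb1, Hspe1 and Bag3 kept a negative sign in every alternative run; the signs of Hsph1 and Hsp90aa1, which did not pass, varied. Counts of genes higher and lower were 200 and 345 with no filter on low values and 360 and 491 once trends on length and GC had been removed. The count of heat shock genes lower was 2 in both settings. In the fits that left out 1 library the genes higher ran from 48 to 857, the genes lower from 125 to 816, the heat shock genes higher from 0 to 1 and the heat shock genes lower from 0 to 4. BT replicate 1 gave the lowest of these counts, with 48 and 125 genes and 0 heat shock genes lower. The median of the 8 cytosolic genes ran from -0.29 to -0.16 and the mitochondrial median from -0.25 to -0.05 in these fits. The mitochondrial median was -0.06 when libraries were brought to one sum, -0.07 after quantile normalization and -0.03 without the length and GC trends, and the cytosolic median was -0.38 with a pseudocount of 0.1. With a filter of 5 FPKM, Hspa1b was not tested and 3 heat shock genes were lower. With a pseudocount of 0.1 the difference of Hspa1a was -1.01, against -0.27, since low values weigh more on that scale. Same-numbered libraries shared only a number in the labels. Their deviations correlated at 0.16, 0.10 and 0.15, and every library correlated best with its own number. The deviations were taken from the mean of the 3 libraries per group, so these correlations depend on each other, and a pairing was not tested. With a replicate block 859 genes were higher and 949 lower, and 4 heat shock genes were lower. No depth is known, so the counting error of low genes such as Hspa1a cannot be given.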
